A study of Mus musculus with 18 samples.

Results

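The 36 genes described here encode aminoacyl-tRNA synthetases, the enzymes that join each amino acid to its tRNA. They were chosen by symbol, though with earlier results of these data known. Taken from the 24411 gene symbols in the expression table were 20 of cytosolic and 16 of mitochondrial enzymes, whose symbols end in 2. All 36 were found and all 36 passed the filter on low values, 1 TPM (a share of all transcripts, scaled by length) or more in at least 3 of the 18 libraries. Eprs encodes a fused enzyme for glutamic acid and proline, and Farsa and Farsb encode the subunits of 1 enzyme. The symbols are older ones; current nomenclature adds a 1 to most names of the cytosolic enzymes (Mars is Mars1).

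As background, a cytosolic synthetase charges tRNAs for translation of nuclear-encoded mRNA, and a mitochondrial one for translation of the few mRNAs of the mitochondrial genome. Both kinds are encoded in the nucleus, and Gars and Kars each supply the cytosol and the mitochondrion from 1 gene. Several cytosolic enzymes sit in the multisynthetase complex with the scaffold proteins encoded by Aimp1, Aimp2 and Eef1e1. When amino acids run short, the kinase GCN2 senses uncharged tRNA and raises translation of the factor ATF4, which is known to drive many cytosolic synthetase genes. Wars, for tryptophan, is known as an interferon-induced gene.

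RNA was sequenced from RAW264.7, a macrophage-like cell line of the mouse. Cells that had received a control guide RNA (labelled WT) were compared with a line in which Kdm7a, the gene of a histone demethylase, was disrupted with CRISPR/Cas9. Each was left without stimulation (M0), was given mouse IFN-γ at 2 ng/ml with LPS at 0.1 µg/ml (M1), or was given mouse IL-4, IL-13 and IL-10 (20 ng/ml) plus 2 ng/ml of human TGF-β1 (M2), all for 48 h. Each of the 6 groups had 3 libraries. One knockout line is named, so a difference between the lines that does not come from Kdm7a cannot be told apart from a knockout effect. No label tells whether the replicates came from separate cultures, so the p-values reflect only how these libraries vary, and that variation may be technical. In bulk RNA, a change in the share of cells in a given state and a change of RNA per cell cannot be told apart.

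TPM are shares of a fixed total, already divided by transcript length, so levels may be compared between genes but the depth of each library is unknown. Kdm7a mRNA checked the labels: the mean ± SD at M0 was 11.1 ± 0.17 TPM in control cells against 3.37 ± 0.14 TPM in the knockout (n = 3 each). Under M1 the means were 29.7 ± 0.85 against 7.49 ± 0.26 TPM and under M2 23.3 ± 1.1 against 6.80 ± 0.88 TPM, and the lines overlapped in no condition. Of 8 macrophage markers, 7 passed the filter, with a summed level of 2397 to 5440 TPM. The exception, Mertk, was at 0 in every M0 library. T-cell markers summed to at most 0.25 TPM, fibroblast markers to 1.9 TPM and epithelial markers to 1.2 TPM, while Cd79a, a B-cell marker, reached 21.2 TPM and was higher in M2 cells; 2 of the 4 B-cell markers were at 0 in every library. Pearson correlations of log2(TPM + 1) between libraries of a group were 0.994 to 0.997.

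In unstimulated control cells the cytosolic enzymes had far more mRNA than the mitochondrial ones. Nars, for asparagine, led the cytosolic genes at 645 ± 2.3 TPM (SD, n = 3), followed by Gars, for glycine, at 520.1 ± 5.2, Eprs at 371 ± 5 and Sars, for serine, at 327 ± 5.6 TPM. Farsa was lowest at 102 ± 3.3 TPM. Between them the order held many near ties: Aars, Lars and Vars lay between 249 and 256 TPM, a gap smaller than the SD of Vars. Most mitochondrial genes lay far lower, from 5.21 ± 0.34 TPM for Ears2, for glutamic acid, to 69.4 ± 0.85 TPM for Tars2, for threonine, and 129 ± 1.6 TPM for Iars2, for isoleucine. Exons of genes on the other strand cover 24.2% of the exonic bases of Iars2, and the sources used here do not say whether counting used strand. Lars2, for leucine, was an exception at 385 ± 41.8 TPM, above most cytosolic genes.

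The summed level of the 20 cytosolic genes was 5031 ± 48 TPM (SD, n = 3) in control M0 cells, 2887 ± 37 TPM in control M1 cells and 4437 ± 72 TPM in control M2 cells. In knockout cells the sums were 4581 ± 38, 2309 ± 21 and 4106 ± 130 TPM in the same order. For the 15 mitochondrial genes other than Lars2, the sums were 476 ± 2.5, 137 ± 2.4 and 413 ± 3.6 TPM in control cells and 478 ± 6.4, 133 ± 3.0 and 411 ± 15 TPM in knockout cells. In both lines both classes were thus lowest under M1, and the knockout libraries lay below the control libraries for the cytosolic sum. A sum over chosen genes was not tested.

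**Figure D1:**
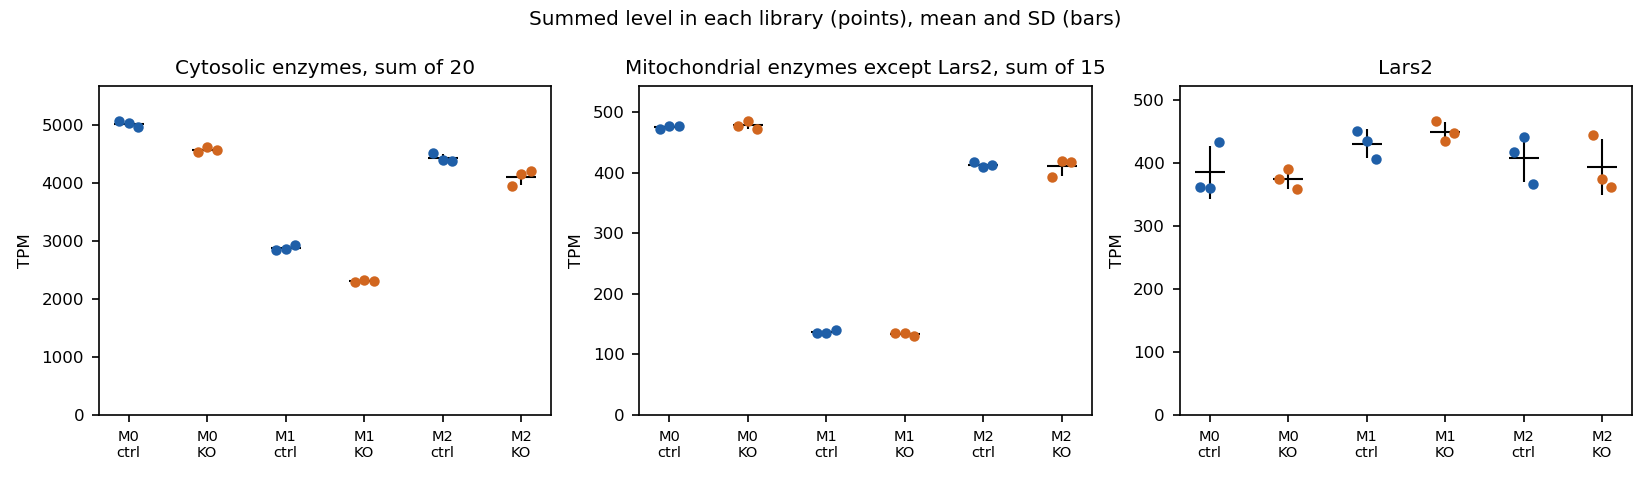
Summed TPM of the cytosolic genes, of the mitochondrial genes other than Lars2, and of Lars2 by itself, on linear axes from 0, in the 6 groups (control and knockout cells, M0, M1 and M2). Points are libraries and bars the mean and SD of 3. In control cells the cytosolic sum was 5031 TPM at M0 and 2887 TPM under M1, the mitochondrial sum 476 and 137 TPM, and Lars2 385 and 431 TPM.

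Lars2 made up 44.7% of the mitochondrial sum in control M0 cells and 75.8% in control M1 cells, and its SD within groups in TPM, 15.8 to 44.4, was the largest of the 36 genes in each of the 6 groups. Its level was 361, 360.5 and 433 TPM in the control M0 libraries, 451, 435 and 406 TPM under M1 and 417, 442 and 366 TPM under M2. In knockout cells it was 374, 390.3 and 359 TPM at M0, 466, 434 and 448 TPM under M1 and 445, 375 and 362 TPM under M2. The groups overlap in control cells, while in knockout cells each M1 library was above each M0 library. Across the 18 libraries its TPM moved with that of Rn45s, the ribosomal RNA precursor, which poly(A) selection should largely remove (Pearson r = 0.668, permutation p = 0.00304; Spearman rho = 0.620, permutation p = 0.0072; 1 relation computed). Without the 2 libraries farthest from the median of Rn45s, r was 0.586, and r of the deviations from the group means was 0.633. The permutations ran over all 18 libraries without regard to group, so their p-values do not measure the relation within groups. A blastn search of 99 protein-coding transcripts of the 36 genes (GENCODE vM21) against the mitochondrial ribosomal RNAs, which are not part of Rn45s, matched 0 transcripts. The part of ribosomal RNA from Rn45s in the Lars2 values was not tested. The ratio of the cytosolic to the mitochondrial sum in control cells was 5.86 ± 0.33 at M0 and 5.09 ± 0.26 under M1. Without Lars2, left out after its values were seen, the ratios were 10.6 ± 0.14 and 21.1 ± 0.15, so that the order of the conditions turned.

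Under M1 most synthetase genes of control cells were lower than at M0, the mitochondrial ones more deeply by the median. Of the 20 cytosolic genes 16 fell, 2 rose and 2 were not called, beside 56.9% of all 11548 tested genes lower and 32.2% higher (limma on log2(TPM + 1), adjusted p below 0.05, two-sided). Of the 16 mitochondrial genes 14 fell, 1 rose and 1 was not called. Falls of 2-fold or more were counted for 9 cytosolic and 12 mitochondrial genes, beside 30.9% of all genes. The median log2 fold change was -0.85 for the cytosolic and -1.66 for the mitochondrial genes, against -0.38 for all tested genes. The counts of higher and lower genes depend on the scaling: with trimmed-mean (TMM) factors on the TPM scale, the median of all genes moved by 0.36 to -0.02, and 48.9% instead of 36.1% of called genes were higher. Under TMM scaling 13 cytosolic genes fell and 7 rose, and 14 mitochondrial genes fell and 2 rose.

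The deepest fall was that of Vars, which encodes the valine enzyme (chr17:35000907-35016329, GRCm38.p6). It was at 259, 246 and 240.3 TPM in the control M0 libraries and 11.4, 12.3 and 12.7 TPM under M1, 20.5-fold lower. On the log2(TPM + 1) scale, which understates changes of low genes, its change was -4.25 (SE 0.049, limma adjusted p = 5.15e-24). Mars, for methionine, went from 193, 187 and 183 TPM to 29.9, 27.0 and 27.5 TPM, a change of -2.69 (SE 0.041, limma adjusted p = 2.35e-22). Of the exonic bases of Mars, 1.99% overlap Ddit3 on the other strand, a gene that rose under M1. For Yars (tyrosine) the log2 change was -1.86, for Iars (isoleucine) -1.84 and for Farsb, the beta subunit of the phenylalanine enzyme, -1.70, with limma adjusted p of 7.61e-20, 9e-19 and 2.13e-17. The 5 genes kept their direction with TMM factors, with log2 changes of -1.30 or below.

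For 2 cytosolic genes the level rose. Sars stood at 330.3, 331 and 321 TPM at M0 and 366, 361 and 372 TPM under M1, every M1 library above every M0 library (log2 change 0.16, SE 0.025, limma adjusted p = 5.52e-06). Wars rose from 139.6, 140.0 and 135 TPM to 159, 159 and 161 TPM, 1.15-fold (log2 change 0.21, SE 0.036, limma adjusted p = 1.84e-05). That is a small change beside the falls, though Wars moved from rank 19 of the 20 cytosolic genes at M0 to rank 7 under M1. Aars, for alanine, was 261, 258 and 248 TPM at M0 and 247, 253 and 258 TPM under M1, with overlapping libraries (log2 change -0.02, SE 0.034, limma adjusted p = 0.661), and Cars, for cysteine, was not called either (log2 change -0.02, SE 0.033, limma adjusted p = 0.67). Small falls were called for Farsa, Kars (lysine) and Rars (arginine), between -0.27 and -0.19 on the log2 scale, but with TMM factors these became rises of 0.13, 0.21 and 0.22, and Aars and Cars were called higher by 0.39 each. The direction of these 5 genes is set by the scaling, while Sars and Wars were higher under both.

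Among the mitochondrial genes, Tars2 went from 70.0, 69.9 and 68.5 TPM at M0 to 8.69, 9.19 and 8.03 TPM under M1, 8.04-fold lower (log2 change -2.87, SE 0.047, limma adjusted p = 8.18e-22). Vars2 and Mars2, the mitochondrial valine and methionine genes, fell by 8.89-fold and 9.24-fold. Mars2 went from 14.8, 17.3 and 17.0 TPM to 1.63, 1.82 and 1.85 TPM (log2 change -2.64, SE 0.082, limma adjusted p = 2.87e-17), with no overlap. Ears2 reached the lowest level of any member, 0.280 ± 0.062 TPM (SD, n = 3) under M1 after 5.35, 5.46 and 4.83 TPM at M0. Fars2, for phenylalanine, was the 1 mitochondrial gene called higher, at 17.3, 17.7 and 16.6 TPM and then 22.8, 21.8 and 24.9 TPM (log2 change 0.41, SE 0.052, limma adjusted p = 3.66e-07). Exons of other genes on the opposite strand cover 10.7% of its exonic bases. With TMM factors Lars2 was called higher as well, by 0.57, and every mitochondrial call with the deposited scaling kept its direction.

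**Figure D2:**
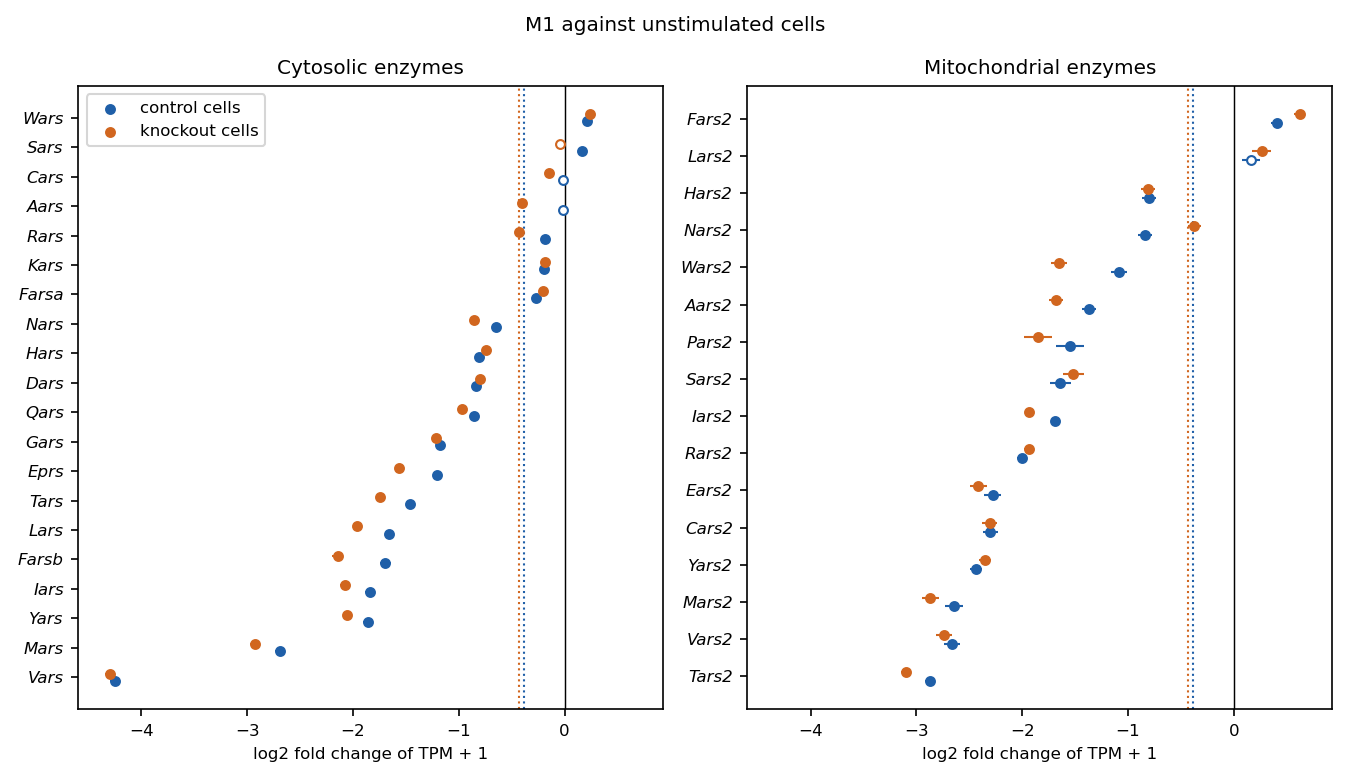
Log2 fold change of each gene under M1 against M0, on the log2(TPM + 1) scale, in control and in knockout cells, cytosolic genes on one panel and mitochondrial genes on the other. Filled points passed the test, open ones did not, and the dotted line is the median of all tested genes. Vars lies farthest to the left at -4.25 in control cells, and Fars2 is the mitochondrial gene farthest to the right.

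Where the cell has a pair of enzymes for 1 amino acid, the mitochondrial and the cytosolic gene often moved by different amounts under M1. Over 16 such pairs (Ears2 and Pars2 both set against Eprs, Fars2 against Farsa), the mitochondrial gene had the more negative change in 10, with a median difference of -0.46 on the log2 scale. The cysteine pair differed most in that direction, with -2.30 for Cars2 and -0.02 for Cars. For tryptophan the changes were -1.08 and 0.21, and for serine -1.64 and 0.16. The valine, leucine and phenylalanine pairs differed the other way, by 1.58, 1.83 and 0.68. The leucine pair holds Lars2, whose TPM moved with that of Rn45s. In the isoleucine, methionine and histidine pairs the mitochondrial change was also the less negative, by only 0.15, 0.05 and 0.01. These differences were not tested.

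By structural class, the 9 cytosolic genes of class I enzymes had a median of -1.66 under M1 and the 10 of class II -0.73 (Eprs, of both classes, is in neither). The 8 genes of enzymes in the multisynthetase complex all fell, with a median of -1.03, and of the 12 free ones 8 fell and 2 rose, with a median of -0.73. With TMM factors 6 of the 8 genes in the complex fell and 2 rose, and 7 of the 12 free ones fell and 5 rose. All 3 scaffold genes fell, Eef1e1 by the most at -1.98. All 4 mitochondrial and all 5 cytosolic elongation factors fell too. The counts here with the deposited scaling stand beside 56.9% of all genes lower. With TMM factors 5266 of 11546 tested genes were lower and 5035 higher. Of 8 genes for proofreading, release and end maturation of tRNA 7 fell, with Aarsd1, an alanine-tRNA editing enzyme, at -3.48, and all 6 genes of selenocysteine charging and insertion fell. With TMM factors 6 of those 8 and 5 of those 6 fell, and the counts for scaffold and elongation factor genes did not change.

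The M1 response of knockout cells was of the same kind. Of the 20 cytosolic genes 18 fell, 1 rose and 1 was not called, and of the 16 mitochondrial genes 14 fell and 2 rose, beside 58.4% of all genes lower and 32.0% higher. Falls of 2-fold or more numbered 9 and 12, beside 33.6% of all genes. The medians were -0.91 for cytosolic and -1.89 for mitochondrial genes, against -0.43 for all genes. Vars was at 253, 259.7 and 259 TPM and then 12.2, 11.9 and 12.3 TPM (log2 change -4.30, SE 0.049, limma adjusted p = 3.98e-24). Mars changed by -2.93, Farsb by -2.15, Iars by -2.08 and Yars by -2.05, and among the mitochondrial genes Tars2 by -3.10, Mars2 by -2.87 and Vars2 by -2.74. Wars rose from 109, 117 and 109 TPM to 132, 134 and 129.9 TPM (log2 change 0.24, SE 0.036, limma adjusted p = 2.15e-06). Fars2 rose by 0.63 and Lars2 by 0.26 (adjusted p = 0.0101). With TMM factors 5 cytosolic genes were called higher and 13 lower, 2 mitochondrial genes higher and 13 lower, and 48.6% instead of 35.4% of all called genes were higher. Cars, Farsa and Kars turned to 0.31, 0.25 and 0.27, and Aars, Rars and Nars2 were at 0.05, 0.02 and 0.05 and no longer called.

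Under M2 the changes were smaller by the median. In control cells 13 cytosolic genes fell, 2 rose and 5 were not called, beside 37.0% of all genes lower and 28.4% higher. Of the mitochondrial genes 11 fell, 2 rose and 3 were not called. The lowest log2 change was -0.68, that of Vars2. The medians were -0.22 and -0.28, against -0.05 for all genes. Vars again had the largest cytosolic change, from 259, 246 and 240.3 TPM at M0 to 171, 161 and 161 TPM under M2 (log2 change -0.59, SE 0.049, limma adjusted p = 2.45e-09). Wars, which rose under M1, fell to 111, 109 and 105 TPM under M2 (log2 change -0.35, SE 0.036, limma adjusted p = 4.83e-08), and Nars, Lars and Gars fell by 0.34, 0.33 and 0.28 on the log2 scale. Rars and Qars, for arginine and glutamine and both in the multisynthetase complex, were the 2 cytosolic genes that rose. Rars was at 278, 284 and 286 TPM at M0 and 342, 325 and 332 TPM under M2 (log2 change 0.24, SE 0.03, limma adjusted p = 1.06e-06), and Qars at 173, 176 and 169 TPM and 206, 196 and 194 TPM (log2 change 0.20, SE 0.033, limma adjusted p = 2.04e-05).

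Of the mitochondrial genes under M2, Vars2 fell from 18.6, 18.8 and 18.4 TPM to 11.5, 10.8 and 11.5 TPM (log2 change -0.68, SE 0.075, limma adjusted p = 1.46e-07) and Mars2 changed by -0.61. Wars2, for tryptophan, went the other way, from 10.2, 10.1 and 9.40 TPM at M0 to 15.6, 15.2 and 15.5 TPM under M2 (log2 change 0.60, SE 0.074, limma adjusted p = 6.94e-07), with no overlap. The tryptophan pair thus had opposite signs in both stimulations: under M1 Wars rose and Wars2 changed by -1.08, and under M2 Wars fell and Wars2 rose. Fars2 rose by 0.26. The smallest calls were not stable: Dars lost its fall with TMM factors (adjusted p = 0.577) and without control M0 replicate 2 or 3 or control M2 replicate 1 or 3 (0.0536 to 0.133), and Aars2 lost its fall with TMM factors (0.139) and without control M0 or control M2 replicate 2 (0.0855 and 0.0905).

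In knockout cells under M2, 14 cytosolic genes fell, 4 rose and 2 were not called, and 12 mitochondrial genes fell, 2 rose and 2 were not called, beside 43.2% of all genes lower and 29.6% higher. The medians were -0.23 and -0.31, against -0.09. Rars went from 223, 229 and 222 TPM to 309, 325 and 328 TPM (log2 change 0.51, SE 0.03, limma adjusted p = 9.42e-12) and Qars changed by 0.38, and Eprs and Farsa were also called higher, by 0.17 and 0.11. Vars changed by -0.68, Aars by -0.43, Cars by -0.42 and Wars by -0.24. Among the mitochondrial genes Mars2 changed by -0.80, Vars2 by -0.78 and Wars2 by 0.45. With TMM factors 11 cytosolic genes fell and 5 rose, and 8 mitochondrial genes fell and 3 rose, and 51.6% instead of 40.7% of all called genes were higher. The rise of Fars2, 0.13, was lost without knockout M0 replicate 1 or 3 or knockout M2 replicate 1 or 2 (adjusted p = 0.0767 to 0.123).

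**Figure D3:**
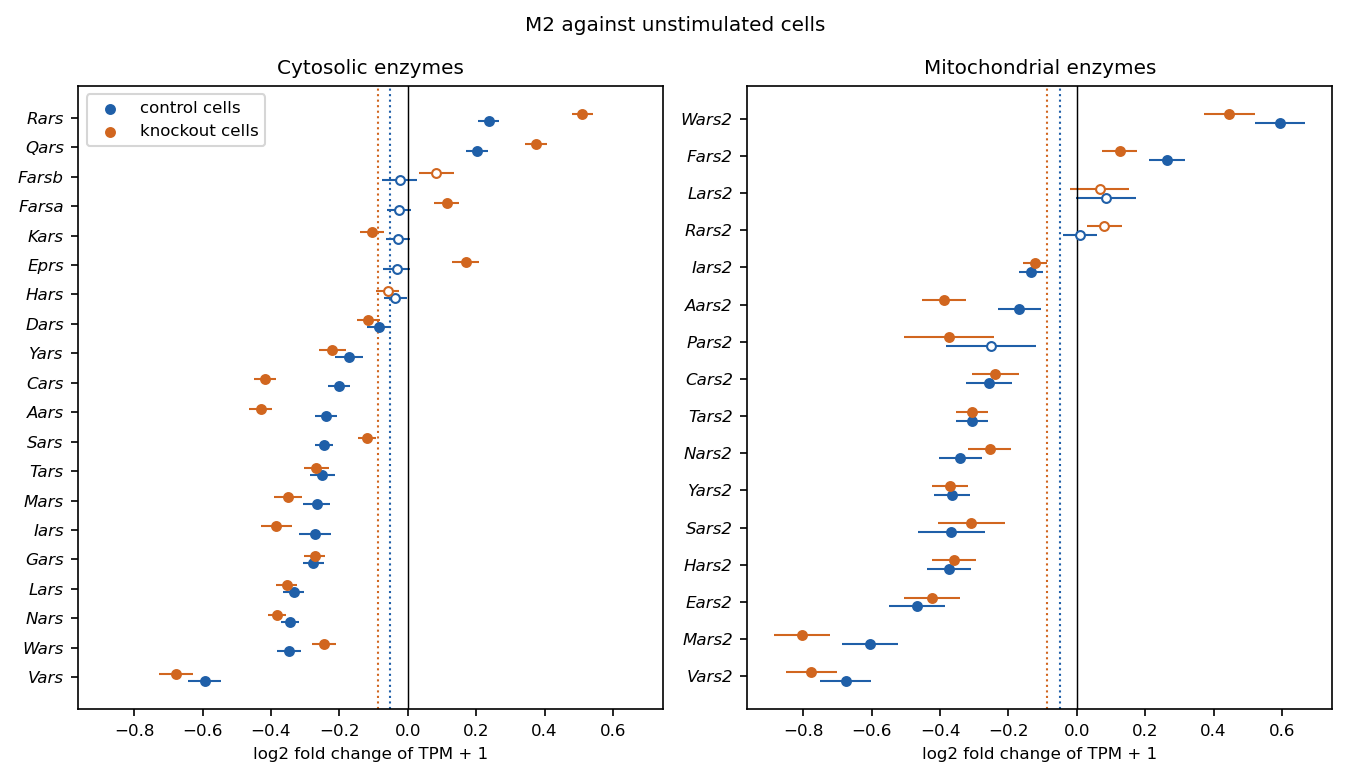
Log2 fold change of each gene under M2 against M0, on the log2(TPM + 1) scale, in control and knockout cells, with cytosolic and mitochondrial genes apart. Filled points passed the test, open ones did not, and the dotted line is the median of all tested genes. Most points lie left of 0, with Rars, Qars, Wars2 and Fars2 to its right in both lines. Lars2 (0.08 in control and 0.07 in knockout cells) and Rars2 (0.01 and 0.08) also lie to its right, not called.

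Many cytosolic synthetase genes were lower in the knockout by small amounts, and few mitochondrial ones were. Without stimulation 10 of the 20 cytosolic genes were lower and none higher, beside 10.3% of all genes lower and 8.86% higher. At an unadjusted limma p below 0.05 the counts were 14 lower and 0 higher. The share of all genes at an unadjusted p was not computed, here or below. Unadjusted counts therefore cannot be set against the shares given, which are for the adjusted p. Of the 16 mitochondrial genes 2 were lower, a share near that of all genes, and none was higher (1 at an unadjusted p below 0.05). The medians were -0.11 for cytosolic, 0.01 for mitochondrial and 0.00 for all genes. The comparisons of knockout with control share no libraries with each other, but each shares its libraries with the responses to stimulation.

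Rars had the largest difference at M0: 278, 284 and 286 TPM in the control libraries and 223, 229 and 222 TPM in those of the knockout, with no overlap (log2 difference -0.33, SE 0.03, limma adjusted p = 1.06e-07). Wars was 139.6, 140.0 and 135 TPM in the control libraries and 109, 117 and 109 TPM in those of the knockout (log2 difference -0.31, SE 0.036, limma adjusted p = 2.44e-06). For Nars the knockout was at 545, 561 and 548 TPM against 645, 643 and 647 TPM in the control libraries (log2 difference -0.23, SE 0.026, limma adjusted p = 2.5e-06), and Sars differed by -0.22. Gars, Eprs, Lars and Hars (histidine) differed by -0.18, -0.14, -0.14 and -0.13, then Aars by -0.13 and Tars (threonine) by -0.11. The mitochondrial genes called lower were Rars2 at -0.22 (adjusted p = 0.00447) and Cars2 at -0.20 (adjusted p = 0.0433). Some calls were lost when 1 library was left out. Eprs and Hars were lost without knockout M0 replicate 2 (adjusted p = 0.0598 and 0.0517), and Tars and Cars2 without any 1 of the 6 libraries (0.0625 to 0.121 and 0.0567 to 0.13), so that 7 to 9 cytosolic genes and 1 mitochondrial gene were called.

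Under M1 the differences between the lines were wider by the median. The knockout was lower for 15 of the 20 cytosolic genes and higher for none, beside 33.4% of all genes lower and 16.9% higher. At an unadjusted limma p below 0.05 the counts were again 15 and 0, with no share of all genes to set beside them. With TMM factors and the adjusted p they were 15 and 1, Dars being the higher one. Of the mitochondrial genes 5 were lower and 2 higher, near the shares of all genes. The medians were -0.31, -0.12 and -0.06. Rars was at 246, 248 and 249 TPM in the control libraries and 162, 171 and 166 TPM in those of the knockout, 1.49-fold lower (log2 difference -0.57, SE 0.03, limma adjusted p = 1.03e-11). Aars was at 247, 253 and 258 TPM in the control libraries and 173, 177 and 179 TPM in those of the knockout (log2 difference -0.52, SE 0.034, limma adjusted p = 2.17e-10). Eprs differed by -0.50, Farsb by -0.48, Lars by -0.44, Nars by -0.43, Sars by -0.43 and Tars by -0.40, each with no overlap of the libraries. Vars and Kars, at 0.00 and 0.02, were not called, and their libraries overlapped.

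Among the mitochondrial genes under M1, Wars2 was at 4.02, 3.88 and 4.53 TPM in the control libraries and 3.02, 2.32 and 2.61 TPM in those of the knockout (log2 difference -0.50, SE 0.074, limma adjusted p = 1.34e-05), and Nars2 at 6.62, 7.43 and 7.33 TPM and 10.4, 10.5 and 9.39 TPM (log2 difference 0.45, SE 0.063, limma adjusted p = 6.91e-06). Nars2 was thus higher in the knockout, while its cytosolic partner Nars was lower. Of its exonic bases, 4.08% overlap a gene on the other strand. Aars2 and Iars2 differed by -0.29 and -0.18, Fars2 by 0.18, Cars2 by -0.21 and Rars2 by -0.15. Fars2 lost its call without control M1 replicate 2 (adjusted p = 0.0558), Cars2 without control M1 replicate 3 or knockout M1 replicate 1 (0.0693 and 0.119), and Rars2 without control M1 or knockout M1 replicate 3 (0.0909 and 0.0991).

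Under M2 the knockout was lower for 12 cytosolic genes and higher for 1, beside 18.3% of all genes lower and 12.7% higher. Of the mitochondrial genes 4 were lower and 1 higher, near those shares. The medians were -0.14, -0.06 and -0.03. Aars was at 224, 214 and 211 TPM in the control libraries and 166, 175 and 180.4 TPM in those of the knockout (log2 difference -0.32, SE 0.034, limma adjusted p = 5.55e-07). Cars was at 137, 136 and 131 TPM and 111, 110.1 and 115 TPM (log2 difference -0.27, SE 0.033, limma adjusted p = 3.5e-06), and Nars, Iars, Wars, Gars, Mars and Lars differed by -0.27, -0.22, -0.20, -0.18, -0.17 and -0.16. Rars, first in the other conditions, was at 342, 325 and 332 TPM in the control libraries and 309, 325 and 328 TPM in those of the knockout, which overlap (log2 difference -0.06, SE 0.03, limma adjusted p = 0.173). Qars was the 1 cytosolic gene called higher, by 0.11 (adjusted p = 0.0149), a call lost without control M2 replicate 2 or 3 (0.0602 and 0.0682). The mitochondrial calls here were Aars2, Fars2, Cars2 and Rars2 lower, at -0.20 to -0.14, and Tars2 higher by 0.13. Each of these 5 was lost without at least 1 library: no mitochondrial gene was lower without control M2 replicate 1, 1 without knockout M2 replicate 3, and 2 without control M2 replicate 3 or knockout M2 replicate 1. Tars2 was lost without control M2 replicate 2 or 3 or knockout M2 replicate 2 or 3 (adjusted p = 0.0736 to 0.184).

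Lower in the knockout in all 3 conditions were 7 cytosolic genes (Aars, Gars, Lars, Nars, Sars, Tars and Wars) and 2 mitochondrial ones (Cars2 and Rars2), beside 3.62% of all genes. Some of these calls were lost without single libraries: Tars and Cars2 at M0, and Cars2 and Rars2 under M1 and under M2. With TMM factors there were 6 cytosolic genes, with Yars added and Sars and Tars lost, and no mitochondrial one. The share of all genes lower in all 3 conditions was not computed with TMM factors. In the pairs for 1 amino acid the mitochondrial gene had the more negative knockout difference in 1 of 16 pairs at M0, 2 under M1 and 4 under M2, with median differences of 0.13, 0.27 and 0.08. Scaling moved the split of all calls here too: 44.2% of called genes were higher under M1 with TMM factors and 33.6% without, and 55.5% and 41.0% under M2.

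**Figure D4:**
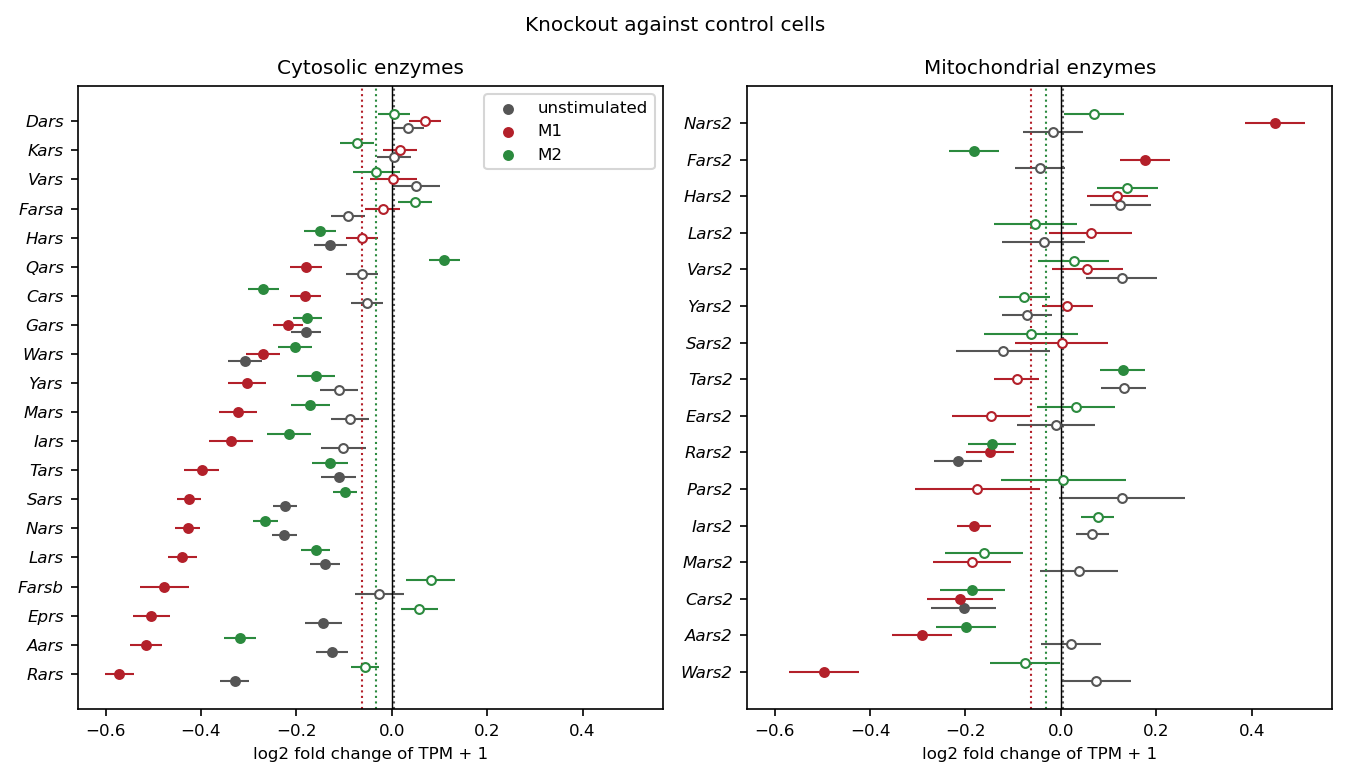
Log2 fold change of each gene, knockout against control, on the log2(TPM + 1) scale, in M0, M1 and M2 cells, with cytosolic and mitochondrial genes apart. Filled points passed the test and open ones did not. Most cytosolic points lie left of 0, with Rars at -0.57 under M1, while the mitochondrial points lie on both sides of 0.

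Because many cytosolic genes were lower together in the knockout, their promoters were searched for the element through which ATF4 and C/EBP proteins are known to bind such genes. The search used TGATGNAA on both strands in the RefSeq promoter sequences (GRCm38.p6, 250 bases before to 50 after the start). A sequence was found for 27 of the 36 members, 13 cytosolic and 14 mitochondrial. The letters occur in 5 cytosolic promoters (Aars, Gars, Iars, Tars and Yars) and in no mitochondrial one, against 4.51% of 27034 genes. The windows below are shown because these 5 genes carry the match. Each is read 5′ to 3′ along the gene, with the match in capitals. In all but Yars the element lies on the opposite strand, so the capitals show its reverse complement.
Aars, chr8:111033694-111033773, plus strand: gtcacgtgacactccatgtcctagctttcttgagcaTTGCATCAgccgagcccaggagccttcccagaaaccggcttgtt
Aars, chr8:111033815-111033871, plus strand: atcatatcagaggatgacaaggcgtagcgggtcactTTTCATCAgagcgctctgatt
Gars, chr6:55037935-55038014, plus strand: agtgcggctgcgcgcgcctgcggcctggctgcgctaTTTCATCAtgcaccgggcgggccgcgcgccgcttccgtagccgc
Iars, chr13:49682101-49682159, plus strand: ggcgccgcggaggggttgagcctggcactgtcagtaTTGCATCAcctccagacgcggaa
Tars, chr15:11399630-11399709, minus strand: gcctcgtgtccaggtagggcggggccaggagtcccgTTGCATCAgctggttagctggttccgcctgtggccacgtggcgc
Yars, chr4:129189870-129189932, plus strand: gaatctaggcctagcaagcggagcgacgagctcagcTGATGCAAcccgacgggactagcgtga

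The matches lie close to the start: the first Aars match begins at -112 and the second at 10, that of Gars at -30, Tars at -15, Yars at 4 and Iars at 8, counted from the start base. The 5 genes with the letters were lower in the knockout in 5 of 5 cases under M1 and M2 and in 3 of 5 at M0, where 33.4%, 18.3% and 10.3% of all genes were lower. Of the 8 cytosolic genes with a promoter sequence but without the letters, 5 were lower under M1, 2 lower and 1 higher under M2, and 2 lower at M0. The sizes of the log2 differences overlapped. With the letters they were -0.52 to -0.22 under M1, -0.32 to -0.13 under M2 and -0.18 to -0.10 at M0. Without them they were -0.50 to 0.07, -0.17 to 0.11 and -0.22 to 0.03. Tars, lower at M0, lost that call when any 1 library of the comparison was left out. The 2 groups of genes were not tested against each other. With TMM factors Tars, with the letters, and Sars, without them, were no longer called under M2 (adjusted p = 0.052 and 0.0718). This is a description of 13 genes, and a match is not a bound site. It leaves out the cytosolic genes without a promoter sequence: Cars, Hars, Lars, Nars, Rars, Vars and Wars. Of these, Rars, Wars and Nars had the largest cytosolic differences between the lines at M0, at -0.33, -0.31 and -0.23. Lars and Hars were at -0.14 and -0.13, and Cars and Vars at -0.05 and 0.05. For the interferon-stimulated response element the match among members was Qars (3.99% of all genes), and for the STAT letters TTCNNNGAA the matches were Aars, Kars and Nars2 (9.55% of all genes). None of the TGATGNAA matches overlaps them.

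The amino acid arm of the integrated stress response, the program that ATF4 drives, was read from a list of 22 genes. Stress-response genes were already known to be lower in these knockout cells when the list was drawn up. In the knockout 15 of the 22 were lower at M0, beside 10.3% of all genes. Under M1, 16 were lower and 3 higher, beside 33.4% lower and 16.9% higher, and under M2 18 were lower, beside 18.3%. With TMM factors 16 were lower under M2, beside 1557 of 11546 genes. The 3 higher under M1 were Nupr1, Stc2 and Eif4ebp1. Nupr1 was at 1468, 1502 and 1447 TPM in the control libraries and 1627, 1676 and 1657 TPM in those of the knockout. Stc2 was at 77.5, 71.1 and 75.15 TPM and 103, 99.1 and 93.4 TPM, and Eif4ebp1 at 366, 360 and 359 TPM and 413, 409 and 435 TPM. Atf4 itself was 1175, 1174 and 1146 TPM in the control libraries and 1037, 1077 and 1081 TPM in those of the knockout at M0 (log2 difference -0.13, SE 0.027, limma adjusted p = 0.00163). Asns, the asparagine synthetase gene, was 192, 194 and 207 TPM in the control libraries and 101, 104 and 106 TPM in those of the knockout under M1 (log2 difference -0.92, SE 0.041, limma adjusted p = 7.3e-13), and at M0 it differed by -0.28. Slc7a11, of the cystine transporter, differed by -1.19 at M0, -1.26 under M1 and -1.07 under M2, and Ddit3 (CHOP) by -0.90, -0.47 and -0.75. Phgdh and Shmt2, of serine and glycine synthesis, were not called at M0 and differed by -1.08 and -1.03 under M1. Under M1 in control cells 17 of the 22 fell and 3 rose, beside 56.9% and 32.2% of all genes. With TMM factors 14 fell and 7 rose, beside 5266 and 5035 of 11546 genes. Of the 22, Shmt2 changed by -4.37 and Slc7a5, of an amino acid transporter, by -3.66, while Slc7a11 and Ddit3 changed by 2.46 and 1.37. Nupr1 rose too, from 324, 317 and 278 TPM in the control M0 libraries to 1468, 1502 and 1447 TPM under M1. The scaffold genes Aimp1, Aimp2 and Eef1e1 differed between the lines by -0.28, 0.27 and -0.40 under M1. At M0 they were at -0.03, -0.01 and -0.11 and under M2 at -0.04, -0.03 and -0.16, not called.

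Whether the lines responded differently was tested as the difference between their responses. The M1 response of 12 cytosolic genes was more negative in the knockout and of none more positive, beside 23.9% and 12.1% of all genes. The counts were 11 and 0 with TMM factors. At an unadjusted limma p below 0.05 they were 13 and 0, with no share of all genes computed. Of all called genes 33.6% were more positive, and 45.0% with TMM factors. For 4 mitochondrial genes it was more negative and for 2 more positive, near those shares. Farsb had the largest cytosolic difference, -0.45 (SE 0.073, limma adjusted p = 8.28e-05): under M1 its level was 44.7, 46.0 and 51.9 TPM in the control libraries and 31.5, 35.1 and 35.0 TPM in those of the knockout, beside overlapping M0 levels of 149.5 to 161 and 151 to 156 TPM. Exons of Sgpp2 on the other strand cover 9.47% of its exonic bases. For Aars the M1 change was -0.02 and not called in control cells and -0.41 in knockout cells, a difference of -0.39 (SE 0.047, limma adjusted p = 3.4e-06); with TMM factors these changes were 0.39 and 0.05, and the difference -0.34. Exons of Exosc6, on the same strand, and Gm24103, on the other, together cover 15.1% of the exonic bases of Aars. Sars rose under M1 in control cells by 0.16 and was at -0.04 and not called in knockout cells, a difference of -0.20 (adjusted p = 0.000201); with TMM factors it rose in both, by 0.57 and 0.42. Eprs, Lars and Tars differed by -0.36, -0.30 and -0.29. Wars, by contrast, rose by 0.21 in control and 0.24 in knockout cells, a difference of 0.04 that was not called (adjusted p = 0.601). Wars2 had the largest difference of all members, -0.57 (SE 0.1, limma adjusted p = 0.000268), and Nars2 the largest positive one, 0.47 (SE 0.089, limma adjusted p = 0.000416). The calls of Cars and Fars2, at -0.13 and 0.22, were lost without some single libraries (adjusted p = 0.0621 to 0.0999 and 0.0531 to 0.0764). For Cars these were control M0 replicate 3, control M1 replicate 1 or 3, knockout M0 replicate 2 or 3 and knockout M1 replicate 1 or 2, and its call was also lost with TMM factors (0.177). For Fars2 they were control M0 replicate 2, control M1 replicate 1 or 2 and knockout M0 replicate 1 or 3.

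The M2 response differed between the lines for few members. It was more positive in the knockout for 4 cytosolic genes and more negative for 2, beside 7.06% and 7.05% of all genes. With TMM factors the counts were 6 and 2, and 64.9% instead of 50.03% of all called genes were more positive. No mitochondrial gene was called by limma (0 more positive and 1 more negative at an unadjusted p below 0.05, and 0 and 0 with TMM factors). Rars rose by 0.24 in control and 0.51 in knockout cells, a difference of 0.27 (SE 0.043, limma adjusted p = 0.000183). Eprs, Qars and Sars differed by 0.20, 0.17 and 0.13, and Aars and Cars by -0.19 and -0.22. Eprs was lost without knockout M0 replicate 2 or knockout M2 replicate 2 or 3 (adjusted p = 0.0508 to 0.0562), and Sars without control M0 replicate 2, knockout M0 replicate 1 or knockout M2 replicate 2 (0.0574 to 0.0627). Without knockout M2 replicate 2 the count of more positive genes was 2.

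**Figure D5:**
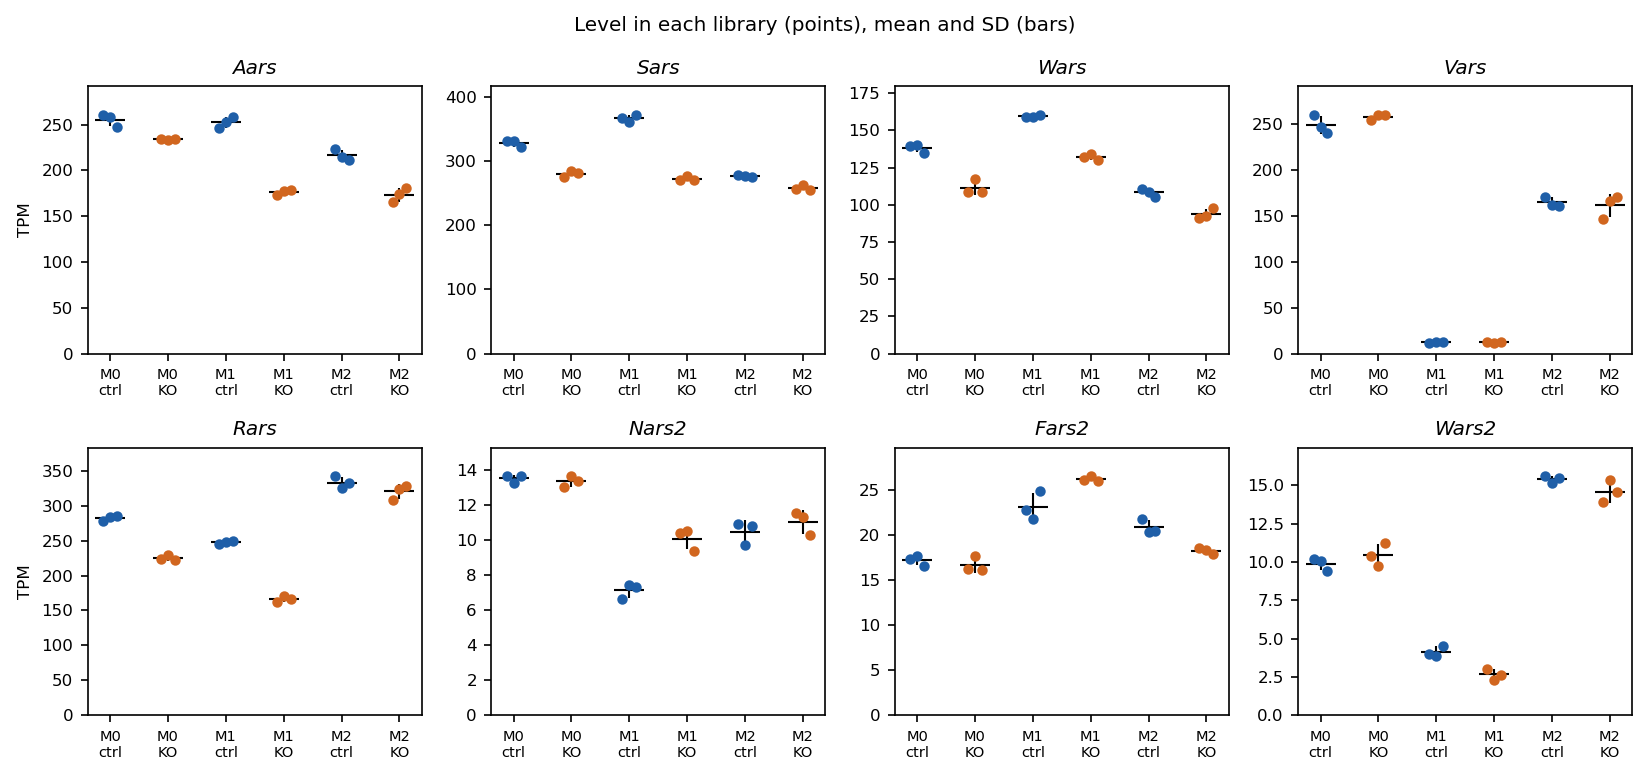
TPM in each library for Aars, Sars, Wars, Vars, Rars, Nars2, Fars2 and Wars2, on linear axes from 0, in the 6 groups. Points are libraries and bars the mean and SD of 3. Vars is near 12 TPM in all M1 libraries of both lines, Wars is highest under M1 and lower in the knockout in each condition, and Nars2 under M1 is higher in knockout than in control libraries.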

How the data were processed

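The authors deposited 1 table of TPM per gene symbol for all 18 libraries, with 2 decimals and 1 common total; its name also speaks of raw counts, but its values are not whole numbers. Per the labels' protocols, poly(A) RNA was isolated and the NEBNext Ultra II kit was used for the libraries. Per the submitters' processing notes, Trim Galore was used and the build was mm10. The strand setting, annotation, quantifier and aligner: not given in the sources used here. TPM keep no depth, so depth is unknown and no counting interval was computed.

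From the deposited TPM, log2(TPM + 1) values were fitted with limma 3.58.1 (trend, robust) in R 4.3.3, as 6 group means in 1 model, the groups taken from the sample titles. The test covered the 11548 of 24411 genes that reached 1 TPM in 3 libraries or more. P-values are two-sided, adjusted by Benjamini-Hochberg over all of them, and called below 0.05. The 9 comparisons were M1 and M2 in each line, the knockout in each condition, and the difference of the responses. The script was tested on simulated data. Alternatives were TMM factors on the TPM scale, a pseudocount of 0.1 TPM, no filter, a replicate block, a fit limited to the groups of a comparison, and leaving out each library; sums were also taken without some members. Columns not used numbered 0.

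The members and lists were chosen with earlier results of these data known. Any member could be named: the 5 cytosolic and 3 mitochondrial members with the largest change in each response, Wars always, up to 8 called members a class in each comparison of lines, and up to 3 genes from each other list. The list of stress-response genes is an exception. More than 3 of its genes are named, and not always those with the largest change. The result of 1 list is not reported here. Positions and promoters came from RefSeq (GRCm38.p6), matched by symbol, and transcripts were searched with blastn 2.17.0.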

Additional observations from a re-analysis of the deposited data

Results flagged for a closer look

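The response to M1 differed between control and knockout cells for 18 members, by limma's test of the difference between the 2 responses. The values are the log2 fold change in the knockout minus that in control cells. Negative differences were found for the cytosolic genes Aars (-0.39), Cars (-0.13), Eprs (-0.36), Farsb (-0.45), Iars (-0.24), Lars (-0.30), Mars (-0.23), Nars (-0.20), Rars (-0.24), Sars (-0.20), Tars (-0.29) and Yars (-0.19). The limma adjusted p ran from 3.4e-06 for Aars to 0.0353 for Cars. Among the mitochondrial genes the difference was negative for Aars2 (-0.31), Iars2 (-0.25), Tars2 (-0.22) and Wars2 (-0.57). It was positive for Fars2 (0.22, adjusted p = 0.025) and Nars2 (0.47, adjusted p = 0.000416).

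The response to M2 differed between the lines for 6 members, all cytosolic. The difference was positive for Eprs (0.20), Qars (0.17), Rars (0.27) and Sars (0.13) and negative for Aars (-0.19) and Cars (-0.22), with adjusted p between 0.000183 for Rars and 0.0231 for Sars. Aars and Cars were called in both tests with a negative sign. For Eprs, Rars and Sars the difference was negative under M1 and positive under M2. The 2 tests share the M0 libraries.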

How the results depend on the processing

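Of 4282 values of single genes under alternatives, 4079 kept their direction and their side of the threshold and 192, in 48 of 362 results, kept their direction but not their call. Those that turned did so with TMM factors: Farsa (0.13), Kars (0.21) and Rars (0.22) under M1 in control cells, Aars (0.049), Cars (0.31), Farsa (0.25), Kars (0.27), Rars (0.023) and Nars2 (0.047) under M1 in knockout cells, and Eef1b2 (0.0022) under M2 in knockout cells. The factors were 0.820 to 0.851 in M1 libraries and above 1 in M0 libraries. The single-gene results counted here were calls with the deposited scaling, with Wars always added. Calls that other genes gained under an alternative were therefore not counted.

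With TMM factors, counts of members also moved to 7 cytosolic and 2 mitochondrial genes higher under M1 in control cells and 5 cytosolic genes higher under M1 in knockout cells. For knockout against control they moved to 1 mitochondrial gene higher at M0, 1 cytosolic gene higher under M1, and 2 cytosolic higher, 3 mitochondrial higher and 1 mitochondrial lower under M2. With only the groups compared, 1 mitochondrial gene was higher under M2 in knockout cells, 1 was higher in the knockout at M0 and 0 under M2. With a pseudocount of 0.1 TPM 1 mitochondrial gene was lower in the knockout at M0 and 0 higher under M2, and without a filter 1 was lower at M0. The cause was not tested.

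With each library left out, mitochondrial genes higher numbered 1 to 2 under M1 in control cells and 1 to 2 under M2 in knockout cells. For knockout against control the ranges were 1 to 1 mitochondrial lower at M0, 1 to 3 mitochondrial higher under M1, and, under M2, 0 to 2 cytosolic higher, 0 to 2 mitochondrial higher and 0 to 3 mitochondrial lower. In the difference of responses they were 1 to 2 mitochondrial genes more positive for M1 and 2 to 4 cytosolic genes more positive for M2.

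No label says whether the replicate numbers pair the libraries. Of 45 correlations of deviations between same-numbered libraries, 7 were over 0.1 (range -0.16 to 0.15). Of 18 libraries, 11 correlated best with their own of the 3 numbers, a hint of pairing from the data only, which was not tested. With the replicate block, 1 cytosolic gene was higher in the knockout under M1 instead of 0 and 6 mitochondrial genes were lower instead of 5, the M1 response of 13 instead of 12 cytosolic genes was more negative in the knockout, and genes called over the whole table numbered 10287 instead of 10290 for M1 in control cells and 1559 instead of 1629 for the difference of the M2 responses.

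The ratio of cytosolic to mitochondrial sums was 5.86, 5.09 and 5.41 in control and 5.37, 3.96 and 5.11 in knockout M0, M1 and M2 cells. Without Kars and Gars, which serve both compartments, it was 5.07, 4.45, 4.70, 4.65, 3.39 and 4.46 in the same order, and without Lars2, chosen after seeing the data, 10.6, 21.1, 10.7, 9.58, 17.3 and 10.0014. Without Wars it was 4.81 in control M1, 5.24 in knockout M0 and 3.74 in knockout M1 cells. Depth is unknown, so the precision of genes near 1 TPM, such as Ears2 and Mars2 under M1, cannot be stated.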
